A study of Mus musculus with 23 samples.

Results

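Genes that mark eosinophils, 10 in number, were followed in RNA-Seq libraries from the lungs of 23 mouse offspring. They are Epx, Prg2, Ccr3, Il5ra, Siglecf, Rnase2a, Rnase2b, Ear1, Ear2 and Ear6, taken by symbol from the 35322 genes listed, and each symbol was found 1 time. All mice were Balb/c, were 13 weeks of age and are described as female in the methods of the study. The Sham group (n = 7) was born to dams given saline, and the PM group (n = 7) was born to dams given fine particulate matter (PM2.5). Neither group was challenged with allergen. Per the methods, the dams were dosed through the nose before mating, during gestation and through weaning, and the offspring were not dosed directly. The Sham-OVA group (n = 5) and the PM-OVA group (n = 4) came from the same kinds of dam and were sensitised to ovalbumin (OVA, an egg protein) and then challenged with it by aerosol, which induces allergic airway disease. The labels mark Sham and PM as without OVA. The methods describe OVA injections for each offspring, so whether Sham and PM had been sensitised is not clear. The labels call the control challenge PBS and the methods call it nebulised saline. The lobe is the right lower one in the methods, while the labels give lung with the letters RML. Airways of the cohort were washed with saline after the lung function test, and whether the sequenced lobes had been washed is not given in the sources used here.

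Eosinophils are granulocytes that leave the bone marrow under interleukin 5 (IL-5), follow eotaxins into tissue through the receptor CCR3, and release toxic granule proteins there. They are a hallmark of allergic airway inflammation. The granule genes studied were Epx (eosinophil peroxidase), Prg2 (major basic protein) and members of the eosinophil-associated ribonuclease family, namely Rnase2a, Rnase2b, Ear1, Ear2 and Ear6. The receptor genes were Ccr3, Il5ra (the IL-5 receptor alpha subunit) and Siglecf (a sialic acid receptor). Siglecf, Ear1 and Ear2 are also made by alveolar macrophages, so they do not mark eosinophils alone. Granule mRNA is made mostly while eosinophils mature, and mature cells keep little of it. In RNA from whole tissue, fewer cells of a type and less RNA per cell cannot be told apart.

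On GRCm38 with the GENCODE annotation, the ribonuclease members lie on chromosome 14, with Ear1 at chr14:43818765-43875517 (minus strand), Ear2 at chr14:44102654-44103534 (plus), Rnase2b at chr14:51162260-51163018 (plus), Rnase2a at chr14:51255262-51256112 (minus) and Ear6 at chr14:51853699-51854643 (plus). The other members are spread over the genome. Prg2 is at chr2:84980461-84983632 (plus), Il5ra at chr6:106710357-106749037 (minus), Siglecf at chr7:43351341-43359531 (plus), Ccr3 at chr9:124021972-124031689 (plus) and Epx at chr11:87864000-87875536 (minus). The ribonuclease genes are close copies of each other. To show how close, the first 100 coding bases of each annotated transcript are given 5′ to 3′, with capitals at bases that differ from Ear2.
Ear2: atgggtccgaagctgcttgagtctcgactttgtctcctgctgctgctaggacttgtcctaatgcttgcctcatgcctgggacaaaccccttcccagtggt
Ear1: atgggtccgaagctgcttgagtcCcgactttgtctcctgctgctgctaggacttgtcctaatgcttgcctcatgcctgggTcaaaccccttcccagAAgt
Ear6: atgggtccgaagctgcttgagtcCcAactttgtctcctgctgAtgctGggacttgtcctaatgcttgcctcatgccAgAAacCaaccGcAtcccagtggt
Rnase2b: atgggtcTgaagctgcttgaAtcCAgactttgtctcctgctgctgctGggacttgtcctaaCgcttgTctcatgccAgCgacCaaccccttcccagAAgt
Rnase2a: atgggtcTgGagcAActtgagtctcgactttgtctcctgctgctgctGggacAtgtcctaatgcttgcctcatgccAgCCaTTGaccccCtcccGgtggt
These stretches differ from Ear2 at 4 bases in Ear1, 10 in Ear6, 12 in Rnase2b and 14 in Rnase2a. Over the whole coding sequence Ear1 and Ear2 were 95.7% identical, Ear2 and Ear6 were 88.0% identical, Rnase2a and Rnase2b were 83.7% identical, and Ear2 and Rnase2a were 80.0% identical. Ear2 was 97.0% identical to Ear10, a neighbouring copy that is not a member. Of all 100-base windows of the annotated transcripts, 23.9% in Ear1 and 13.9% in Ear2 also occurred without a mismatch in transcripts of another gene, and 0% did so in the other 8 members. A read from a shared window can be placed on either copy, so values of Ear1 and Ear2 are uncertain. Ear1 also overlaps other annotated genes and Ear2 overlaps a gene on the opposite strand, and the strand setting of the counting is not given in the sources used here.

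Values were RPM, the reads on a gene per 1000000 reads of the library. The share of library reads on genes was 83.0% to 92.4% in Sham and 88.2% to 91.3% in PM. It was 71.4% to 85.7% in Sham-OVA and 78.5% to 85.6% in PM-OVA. The part of this share in the levels was not tested. Saline libraries held 13089691 to 17393579 reads on genes. The OVA libraries were shallower, with 10345173 to 12355561 reads in 6 of them and 2298645 to 5922469 in the other 3, which were replicate 3 of Sham-OVA together with replicates 3 and 4 of PM-OVA. Tests used limma on log2(RPM + 0.5) over the 16795 genes that reached 0.5 RPM in 4 libraries or more, and adjusted p-values throughout are limma's with Benjamini-Hochberg adjustment over all of these genes unless another tool is named. Of the 10 members, 6 passed this filter and 4 did not (Rnase2b, Ear1, Ear2 and Ear6). Ccr3, Il5ra and Siglecf would have passed on the saline libraries alone. Epx, Prg2 and Rnase2a passed only through the OVA libraries, so for these 3 a difference between OVA and saline was built into the filter. The labels do not say whether samples of 1 group came from separate litters, and p-values measure only the spread between these samples. Sham replicate 1 lacked Xist and held Y-linked transcripts, against the description as female, and stayed in its group. Of the other libraries, Sham replicate 6 and PM replicate 4 each held 2 reads of the Y-linked gene Ddx3y, and each held the highest Rnase2a level of its group.

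**Figure D1:**
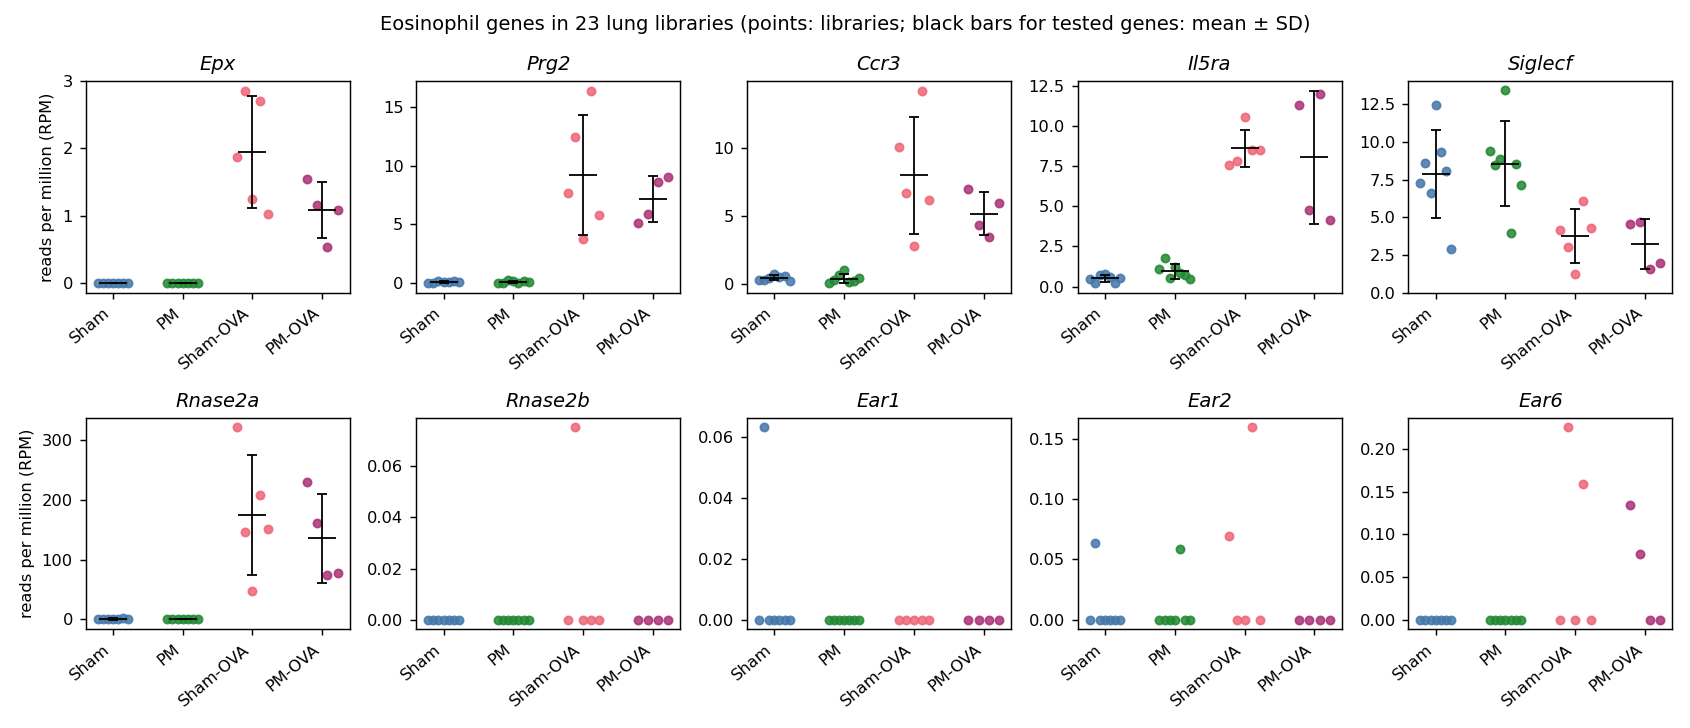
RPM (vertical axis, a separate linear scale for each gene) of the 10 members in each library of the 4 groups, with 1 point for each library and, for the 6 tested genes, black bars for the mean ± SD. Epx, Prg2, Ccr3, Il5ra and Rnase2a sit higher in every OVA library than in any saline library, Siglecf sits lower on average after OVA with overlap, and Rnase2b, Ear1, Ear2 and Ear6 never exceed 0.226 RPM.

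OVA challenge was followed by higher levels of the granule genes Epx, Prg2 and Rnase2a and of the receptor genes Ccr3 and Il5ra, and by lower levels of Siglecf, in offspring of both kinds of dam. The call of Siglecf depended on the processing, as given below. Rnase2a, a secreted granule ribonuclease, had the largest rise of the members. Its mean was 0.479 RPM in Sham against 174.8 RPM in Sham-OVA, and 0.0911 RPM in PM against 135.6 RPM in PM-OVA. At an adjusted p under 0.05 by limma, 5 of the 6 tested members were called higher and 1 lower in Sham-OVA against Sham, where 20.6% of all tested genes were called higher and 47.5% lower. The same 5 were called higher and the same 1 lower in PM-OVA against PM, where 20.1% of all genes were called higher and 45.2% lower. Because 3 of the 6 could pass the filter only by being high after OVA, these counts are a description. Without Sham replicates 1 and 6 the count in Sham offspring was 5, all higher. The stricter threshold of the study (adjusted p under 0.000001 and a log2 fold change above 1) was passed by Epx, Prg2, Il5ra and Rnase2a in Sham offspring, against 1.98% of all genes called higher, and by Prg2 and Rnase2a in PM offspring, against 0.262%. In PM offspring this count of 2 became 1 when any library other than PM replicate 3 or PM-OVA replicate 1 was left out, and in Sham offspring the count of 4 became 2 without Sham replicates 1 and 6. Because of the filter, these stricter counts are a description too, as are the p-values and ranks of Epx, Prg2 and Rnase2a below. The median log2 fold change of all tested genes was -0.48 in Sham and -0.43 in PM offspring, and it moved to -0.08 and -0.05 under quantile normalisation. The 5 risers kept their direction and their call under quantile normalisation and under median-of-ratios scaling.

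Epx encodes the peroxidase of the granule matrix and is among the most specific markers of the lineage. It had 0 reads in each of the 14 saline libraries, which allows up to 0.0247 RPM in Sham and 0.0251 RPM in PM (3 reads over the group, counting error only). After OVA it stood at 1.88, 2.86, 1.24, 2.71 and 1.02 RPM in Sham-OVA replicates 1 to 5, on 4 to 38 reads. In PM-OVA replicates 1 to 4 it stood at 1.55, 1.16, 0.531 and 1.09 RPM, on 4 to 23 reads. Every OVA library held Epx reads and no saline library did. The mean was at least 78.5-fold higher in Sham-OVA than in Sham and at least 43.1-fold higher in PM-OVA than in PM. On the log2(RPM + 0.5) scale, which understates changes of low genes, the differences were 2.22 ± 0.21 (SE, adjusted p = 6.27e-07) and 1.62 ± 0.18 (SE, adjusted p = 3.63e-05).

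Prg2 encodes major basic protein, the core of the granule, and is also made by mast cells and basophils. In Sham it ranged from 0 to 0.174 RPM (median 0.0557) and in PM from 0 to 0.260 RPM (median 0.0569), with at most 5 reads in a library. In Sham-OVA replicates 1 to 5 it reached 7.71, 12.4, 3.73, 16.4 and 5.77 RPM. In PM-OVA replicates 1 to 4 it reached 5.11, 5.87, 8.63 and 9.08 RPM. Every OVA library lay far above the highest saline library. The ratio of means was 140.3 for Sham and 79.5 for PM offspring, with log2 fold changes of 3.94 ± 0.29 (adjusted p = 7.42e-08) and 3.68 ± 0.21 (adjusted p = 2.30e-07). Prg3, a gene beside Prg2 that encodes a second form of major basic protein, had 0 reads in saline libraries, 9 reads in Sham-OVA and 2 in PM-OVA.

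Rnase2a took most of the signal of the members. In Sham it ranged from 0 to 2.96 RPM (median 0), and in PM from 0 to 0.329 RPM (median 0). In Sham-OVA replicates 1 to 5 it stood at 321.5, 146.2, 46.9, 208.8 and 150.6 RPM, and in PM-OVA replicates 1 to 4 at 229.1, 161.4, 74.3 and 77.7 RPM. The groups did not overlap, and the log2 fold changes were 7.68 ± 0.51 (adjusted p = 3.16e-08) in Sham and 7.71 ± 0.31 (adjusted p = 1.01e-08) in PM offspring, placed 7 and 5 from the top of all tested genes. The ratio of means rested on few saline reads. It was 365.0 in Sham offspring and 2696 without Sham replicate 6, which held 51 of the 58 Sham reads, and it was 1488 in PM offspring and 2637 without PM replicate 4. Within the 9 OVA libraries Rnase2a took 70.6% to 91.1% of the summed RPM of the 10 members. Which cells of the lung made it was not tested.

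Rnase2a also differed between shallow and deep libraries. The 3 shallow OVA libraries held 46.9 to 77.7 RPM, and the 6 deep ones held 146.2 to 321.5 RPM, without overlap, although RPM are already scaled to the library. Siglecf divided the same way, at 1.24 to 2.00 RPM in the 3 shallow and 3.01 to 6.06 RPM in the 6 deep libraries. Epx, Prg2, Ccr3 and Il5ra overlapped between the shallow and the deep libraries. The shallow median was the lower one for Ccr3 (3.45 against 6.84 RPM) and Epx (1.09 against 1.71 RPM), as for Rnase2a and Siglecf, and the higher one for Prg2 (8.63 against 6.79 RPM) and Il5ra (10.6 against 8.15 RPM). The part of depth in the levels was not tested.

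**Figure D2:**
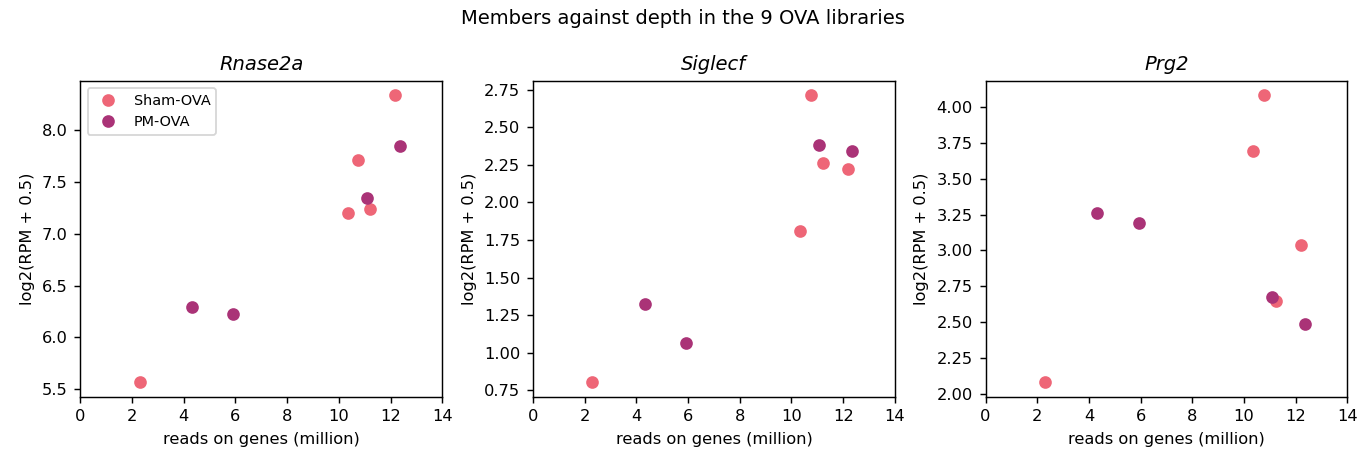
Level of Rnase2a, Siglecf and Prg2 (vertical axis, log2(RPM + 0.5)) against the reads counted on genes (horizontal axis, in units of 1000000 reads) in the 9 OVA libraries, 1 point for each library, coloured by group. For Rnase2a and Siglecf the 3 shallow libraries lie below the 6 deep ones, and for Prg2 they do not.

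The receptors Ccr3 and Il5ra differed from the granule genes in that they were detected in every saline library. Ccr3, which binds eotaxins, ranged from 0.201 to 0.761 RPM in Sham (median 0.463) and from 0.0688 to 0.988 RPM in PM (median 0.256). In Sham-OVA replicates 1 to 5 it stood at 10.1, 6.70, 2.80, 14.3 and 6.21 RPM and in PM-OVA replicates 1 to 4 at 6.99, 4.33, 3.45 and 5.99 RPM. No OVA library overlapped a saline one. The ratios of means were 18.0 and 13.5 in Sham and PM offspring, with log2 fold changes of 3.03 ± 0.31 (adjusted p = 1.35e-06) and 2.71 ± 0.28 (adjusted p = 2.16e-05).

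Il5ra, which gives the IL-5 receptor its specificity and is also made by some B cells, ranged from 0.232 to 0.761 RPM in Sham (median 0.552) and from 0.455 to 1.79 RPM in PM (median 0.880). In Sham-OVA it was the most even of the risers, at 7.57, 7.82, 10.6, 8.53 and 8.47 RPM in replicates 1 to 5. In PM-OVA it fell into a high and a low pair, at 11.3 and 11.9 RPM in replicates 1 and 3 and at 4.79 and 4.18 RPM in replicates 2 and 4. Both pairs still lay above all saline libraries. The ratios of means were 16.6 and 8.37 in Sham and PM offspring, with log2 fold changes of 3.18 ± 0.20 (adjusted p = 2.00e-08) and 2.47 ± 0.33 (adjusted p = 0.000103).

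Siglecf went the other way. It ranged from 2.86 to 12.4 RPM in Sham (median 8.08) and from 3.93 to 13.4 RPM in PM (median 8.55). In Sham-OVA replicates 1 to 5 it stood at 4.17, 3.01, 1.24, 6.06 and 4.31 RPM and in PM-OVA replicates 1 to 4 at 4.57, 4.71, 1.59 and 2.00 RPM. The groups overlapped through the lowest saline library of each comparison, Sham replicate 7 and PM replicate 5. The log2 fold changes were -1.01 ± 0.35 (adjusted p = 0.0183) in Sham and -1.33 ± 0.33 (adjusted p = 0.00362) in PM offspring, against medians of all genes of -0.48 and -0.43. Of all tested genes, 30.3% in Sham and 18.6% in PM offspring had a lower fold change than Siglecf. In Sham offspring the call was lost under quantile normalisation (limma, -0.50, adjusted p = 0.142), with edgeR on the recovered reads (-0.61, adjusted p = 0.0847) and without Sham replicates 1 and 6 (limma, -0.99, adjusted p = 0.0522). In PM offspring it was lost without the 3 shallow libraries, at -0.75 with limma's adjusted p = 0.0712.

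**Figure D3:**
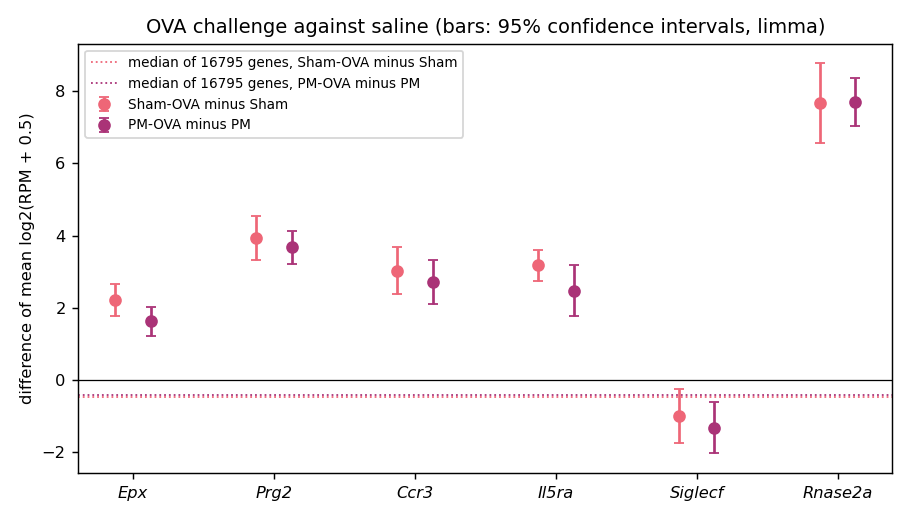
Difference of mean log2(RPM + 0.5) between OVA and saline groups (vertical axis) for the 6 tested members in Sham and in PM offspring, with 95% confidence intervals from limma and dotted lines at the median of all 16795 tested genes (-0.48 and -0.43). The differences run from -1.33 and -1.01 for Siglecf to 7.68 and 7.71 for Rnase2a.

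The 4 ribonuclease genes below the filter were close to absent from the counts. Rnase2b, the nearest copy of Rnase2a by coding sequence among the members, had 1 read in all 23 libraries, in Sham-OVA replicate 2, against 17957 reads for Rnase2a. Ear6 had 0 reads in saline libraries, 5 reads in Sham-OVA (3 in replicate 2 and 2 in replicate 4) and 3 in PM-OVA (2 in replicate 1 and 1 in replicate 2). Ear2 had 5 reads in all, 1 in Sham, 1 in PM and 3 in Sham-OVA, and Ear1 had 1 read, in Sham replicate 2. The neighbours Ear10 and Ear14, which are not members, were listed at 0 in every library. Ear1 and Ear2, ribonucleases that alveolar macrophages also make, were thus at or near 0 in saline lungs in which the alveolar macrophage genes Marco and Abcg1 were measured. Windows free of exact sharing made up most of both transcripts, and why their counts were this low was not tested.

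Compared per length, the order of the members changed with challenge. In Sham, the mean level per kilobase of annotated exon was 2.83 ± 1.04 RPM/kb (SD, n = 7) for Siglecf, which led, and 0.694 ± 1.60 RPM/kb for Rnase2a, which rested mostly on replicate 6. Il5ra (0.145 ± 0.060 RPM/kb), Ccr3 (0.136 ± 0.059 RPM/kb) and Prg2 (0.0783 ± 0.0743 RPM/kb) followed and differed by less than their spread. In Sham-OVA, Rnase2a led at 253.3 ± 145.7 RPM/kb (SD, n = 5), followed by Prg2 at 10.99 ± 6.15 RPM/kb, and their ranges did not overlap. Ccr3 (2.45 ± 1.33 RPM/kb) and Il5ra (2.40 ± 0.33 RPM/kb) did not differ beyond their spread, nor did Siglecf (1.35 ± 0.64 RPM/kb) and Epx (0.709 ± 0.304 RPM/kb). In PM-OVA the same order held for the means down to Prg2, at 196.6 ± 107.5 and 8.56 ± 2.36 RPM/kb (SD, n = 4), with Il5ra at 2.25 ± 1.16, Ccr3 at 1.59 ± 0.49, Siglecf at 1.15 ± 0.59 and Epx at 0.395 ± 0.153 RPM/kb. The aligner does not split reads across introns, and the share of 100-base windows that lie inside 1 exon was 44.9% in Prg2, 54.3% in Epx, 69.6% in Il5ra, 70.5% in Siglecf, 93.2% in Rnase2a and 96.9% in Ccr3, so levels of Prg2 and Epx cover less of their transcripts.

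The sequences before the start sites were compared because Rnase2a and Rnase2b are near copies in sequence and far apart in level. Over the 250 bases before the RefSeq start (GRCm38), both genes are given on their coding strand, Rnase2a at chr14:51256113-51256362 and Rnase2b at chr14:51162010-51162259.
Rnase2a: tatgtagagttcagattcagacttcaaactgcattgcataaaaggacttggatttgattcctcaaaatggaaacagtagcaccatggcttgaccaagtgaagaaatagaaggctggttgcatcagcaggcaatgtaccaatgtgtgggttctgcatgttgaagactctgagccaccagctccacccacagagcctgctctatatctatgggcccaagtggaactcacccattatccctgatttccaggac
Rnase2b: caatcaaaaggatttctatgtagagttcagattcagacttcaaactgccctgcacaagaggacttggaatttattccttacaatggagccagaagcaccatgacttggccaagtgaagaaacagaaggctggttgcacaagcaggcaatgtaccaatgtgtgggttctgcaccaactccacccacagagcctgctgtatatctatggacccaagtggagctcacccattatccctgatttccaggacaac
They were 91.3% identical over 231 aligned bases. This was within the range of the ribonuclease members, which ran from 86.1% (Ear1 and Rnase2a) to 99.2% (Ear1 and Ear2), and Rnase2b was 92.8% identical to Ear6. The 2 receptor genes that rose are shown for a match to the letters AGATAA, a form of the motif bound by GATA factors such as GATA1, which drives the eosinophil lineage. Ccr3 holds it within chr9:124021721-124021970 (plus) and Il5ra within chr6:106749038-106749287 (minus), with capitals at the match.
Ccr3: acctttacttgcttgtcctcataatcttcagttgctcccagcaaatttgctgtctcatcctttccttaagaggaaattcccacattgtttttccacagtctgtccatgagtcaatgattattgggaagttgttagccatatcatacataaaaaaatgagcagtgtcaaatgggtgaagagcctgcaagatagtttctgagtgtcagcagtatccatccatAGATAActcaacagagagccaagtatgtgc
Il5ra: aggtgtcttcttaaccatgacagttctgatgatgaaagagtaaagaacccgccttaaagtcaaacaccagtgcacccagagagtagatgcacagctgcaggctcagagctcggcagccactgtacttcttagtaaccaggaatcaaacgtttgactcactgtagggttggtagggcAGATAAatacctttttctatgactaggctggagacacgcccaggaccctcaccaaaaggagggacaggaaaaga
The match begins 30 bases before the start in Ccr3 and 74 in Il5ra. The letters were searched on both strands of the 9 members with a RefSeq promoter, of which 7 held no match, and 9.99% of all 32851 promoters of the same length held one. A match is a description of the letters and not a bound site. Gata1 rose by 1.33 ± 0.47 (log2, adjusted p = 0.0207) in Sham and 0.87 ± 0.32 (adjusted p = 0.0279) in PM offspring. Gata2 was called lower in Sham offspring, at -0.58 (adjusted p = 0.00732), but not under median-of-ratios scaling (adjusted p = 0.355). In PM offspring Gata2 was not called, at -0.31 (adjusted p = 0.351). Whether a GATA factor acted on Ccr3 or Il5ra was not tested.

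Maternal PM2.5 was not followed by a called difference in any of the 6 tested members. Without challenge, PM against Sham called 0 of the 6 and 0% of all 16795 genes by limma at an adjusted p under 0.05. At an unadjusted p under 0.05 there were 1 of the 6 and 731 of all genes, and edgeR and DESeq2 on the recovered reads called 0 genes. The 1 member was Il5ra, at a mean of 0.961 RPM in PM and 0.518 RPM in Sham with overlapping libraries (difference 0.49, 95% CI 0.07 to 0.91, adjusted p = 0.898). The level of Epx was 0 in both groups. The 95% confidence intervals of the log2 difference were -0.21 to 0.31 for Prg2, -0.58 to 0.29 for Ccr3, -0.43 to 0.70 for Siglecf and -1.08 to 0.45 for Rnase2a.

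With challenge, the mean of each of the 6 was lower in PM-OVA than in Sham-OVA, and for each the libraries overlapped. PM-OVA against Sham-OVA called 0 of the 6 and 0% of all genes by limma, with 0 of the 6 and 313 of all genes at an unadjusted p under 0.05. Over all genes edgeR called 0 and DESeq2 called 1, which was not a member. Epx had the widest gap, with a mean of 1.08 ± 0.42 RPM (SD, n = 4) in PM-OVA and 1.94 ± 0.83 RPM (SD, n = 5) in Sham-OVA (log2 difference -0.60, 95% CI -1.35 to 0.15, adjusted p = 1). The intervals were -1.16 to 0.75 for Prg2, -1.44 to 0.53 for Ccr3, -1.02 to 0.58 for Il5ra, -1.22 to 0.85 for Siglecf and -1.50 to 0.93 for Rnase2a. Of the 4 PM-OVA libraries 2 were shallow, against 1 of the 5 Sham-OVA libraries.

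The question of whether the response to OVA differed by maternal exposure was tested with the interaction term, the OVA change in PM offspring minus that in Sham offspring. It called 0 of the 6 members and 0% of all genes, with 1 of the 6 and 854 of all genes at an unadjusted p under 0.05, and edgeR called 0 and DESeq2 2 of all genes, neither of them a member. The 1 member was Epx, at -0.60 (95% CI -1.15 to -0.04, adjusted p = 0.911). Il5ra stood at -0.71 (95% CI -1.49 to 0.07). Because Epx was at 0 in every saline library, its interaction repeats the difference between the OVA groups. The fit takes its error over all 4 groups, so saline libraries without spread enter it. The SE was 0.27, against 0.34 between the OVA groups alone, so the narrower interval is not further evidence. With array weights, which count libraries far from their group less, the interaction of Epx was -1.10 with adjusted p = 0.0102. The same limit holds there, and PM-OVA against Sham-OVA called 0 of the 6 under every alternative.

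**Figure D4:**
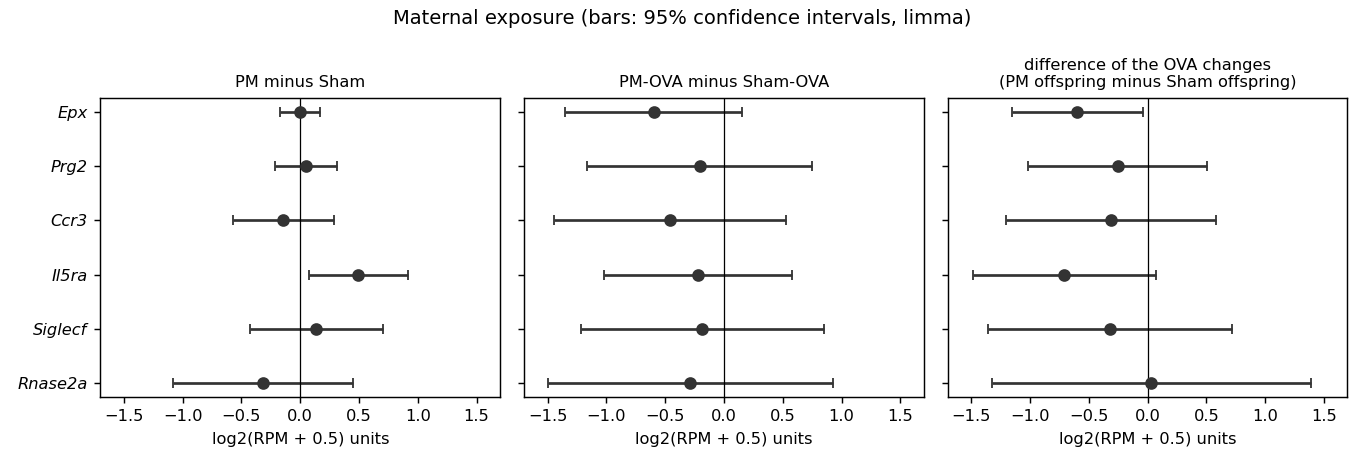
Log2 differences (horizontal axes, log2(RPM + 0.5) units) of the 6 tested members for PM minus Sham, PM-OVA minus Sham-OVA and the difference of the OVA changes, with 95% confidence intervals from limma. Each interval holds 0 except those of Il5ra in PM minus Sham (0.07 to 0.91) and Epx in the difference of the OVA changes (-1.15 to -0.04), neither of which passed adjustment. That Epx interval draws its error also from saline libraries that are all at 0.

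Of the ligands of CCR3 and related chemokines, some rose with Ccr3 and some did not. Which receptor each of them acted on here was not tested. Ccl11 (eotaxin-1) stood at 2.33 ± 0.75 RPM in Sham and 86.7 ± 19.1 RPM in Sham-OVA, and at 2.18 ± 0.71 RPM in PM and 80.2 ± 14.3 RPM in PM-OVA (SD, groups of 7, 5, 7 and 4). Ccl24 (eotaxin-2) went from 1.35 ± 0.47 to 100.03 ± 33.8 RPM and from 1.75 ± 0.83 to 60.2 ± 32.5 RPM. Ccl8 had the largest rise of the recruitment genes, from 1.44 ± 0.92 to 632.1 ± 308.3 RPM in Sham and from 1.27 ± 0.76 to 348.9 ± 67.3 RPM in PM offspring. Ccl7 and Ccl12, monocyte chemoattractants of the same family, rose by 3.63 and 3.41 in Sham and by 2.43 and 3.09 in PM offspring on the log2 scale. Ccl5 and Ccl28, a mucosal CCR3 ligand, depended on the scaling. Ccl5 was not called at the deposited scaling, at 0.22 (adjusted p = 0.538) and 0.17 (adjusted p = 0.434), and was called higher under quantile normalisation, at 0.61 (adjusted p = 0.0264) and 0.57 (adjusted p = 0.00721). Ccl28 was called lower at the deposited scaling, at -0.69 (adjusted p = 0.0329) and -0.82 (adjusted p = 0.0306), and was not called under quantile normalisation, at -0.17 (adjusted p = 0.619) and -0.42 (adjusted p = 0.118). Ccl26 had 1 read in all.

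Of the cytokines of the IL-5 family, Il5 rose by 1.26 ± 0.33 (log2, adjusted p = 0.00375) in Sham and 0.74 ± 0.29 (adjusted p = 0.0399) in PM offspring, on 73 and 25 reads over the OVA groups. Il3 was listed at 0 throughout. Csf2, which encodes GM-CSF, rose by 0.63 (adjusted p = 0.0363) in Sham offspring and stood at -0.10 (adjusted p = 0.718) in PM offspring, or 0.31 under quantile normalisation. Of the receptor subunits related to Il5ra, none came near its fold change. The common beta chain Csf2rb was not called, at -0.15 (adjusted p = 0.753) and -0.45 (adjusted p = 0.241), with values of 0.28 and 0.02 under quantile normalisation. Its mouse copy Csf2rb2 stood at 0.56 (adjusted p = 0.142) and 0.04 (adjusted p = 0.861), and was called higher under quantile normalisation, at 1.05 (adjusted p = 0.000852) and 0.50 (adjusted p = 0.0222). Il3ra rose by 0.71 (adjusted p = 0.00195) and 0.87 (adjusted p = 0.00188). Csf2ra was called lower in Sham offspring, at -1.86 (adjusted p = 0.0374), but not under either other scaling (adjusted p = 0.0653 and 0.0626), and stood at -1.40 (adjusted p = 0.0527) in PM offspring.

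Of the 16 tested genes of growth and recruitment, 10 were called higher and 3 lower in each kind of offspring, with median log2 fold changes of 0.94 and 0.66. Over all genes, calls higher went from 20.6% to 31.8% in Sham and from 20.1% to 31.2% in PM offspring under quantile normalisation. Calls lower went from 47.5% to 35.7% and from 45.2% to 33.7%. Under this scaling 13 of the 16 were called higher and 1 lower in Sham and 11 higher and 1 lower in PM offspring. The gene called lower in each case was Icam1, an adhesion molecule, at -1.20 (adjusted p = 0.000344) at the deposited scaling in PM offspring. Tslp, an epithelial alarmin, had the lowest value in Sham offspring, at -1.36 (adjusted p = 0.0319), and was not called under quantile normalisation (adjusted p = 0.0895).

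**Figure D5:**
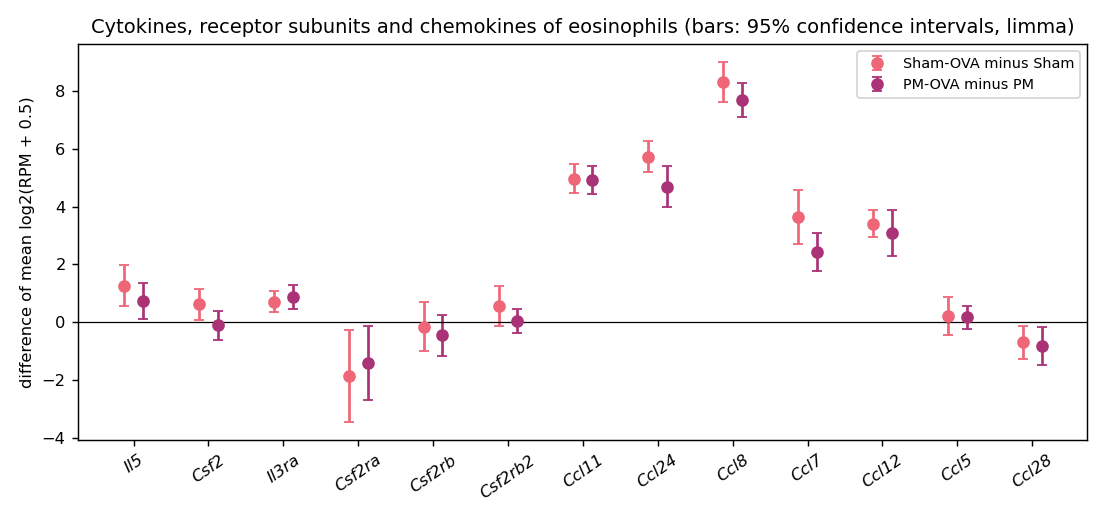
Difference of mean log2(RPM + 0.5) between OVA and saline groups (vertical axis) for cytokines, receptor subunits, and CCR3 ligands with related chemokines, in Sham and in PM offspring, with 95% confidence intervals from limma. Ccl8, Ccl24 and Ccl11 lie between 4.70 and 8.32, and the beta chains Csf2rb and Csf2rb2 lie between -0.45 and 0.56 at the deposited scaling.

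Other genes of eosinophils moved in both directions. Of 19 tested, 10 were called higher and 4 lower in Sham offspring (median log2 fold change 0.71) and 9 higher and 3 lower in PM offspring (median 0.54). Quantile normalisation called 31.8% of all genes higher and 35.7% lower in Sham, and 31.2% and 33.7% in PM offspring. Under it the counts of this list were 11 higher and 1 lower in Sham and 11 higher and 3 lower in PM offspring. The largest rises were those of Alox15, a lipoxygenase, by 4.09 ± 0.47 in Sham offspring (adjusted p = 4.03e-06), and of Cebpe, a factor of granulocyte maturation, by 3.07 ± 0.41 in PM offspring (adjusted p = 0.000104). Ptgdr2, the prostaglandin D2 receptor of eosinophils and type 2 lymphocytes, had the largest fall in PM offspring, by 1.65 ± 0.21 (adjusted p = 8.62e-05), and fell by 1.47 (adjusted p = 0.000576) in Sham offspring. Of the 13 other RNase A family genes of chromosome 14, 4 were tested. Rnase1 rose by 1.80 and Rnase6 by 1.53 in Sham offspring and by 1.09 and 1.35 in PM offspring, Rnase4 fell by 1.51 and by 1.61, and Ang, which encodes angiogenin, was not called, but was called higher under quantile normalisation, at 0.56 (adjusted p = 0.0144) and 0.55 (adjusted p = 0.0490).

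Markers of other cells that hold member transcripts moved as well. Over all tested genes, 20.6% were called higher and 47.5% lower in Sham offspring, and 20.1% and 45.2% in PM offspring. Of 15 alveolar macrophage genes, which bear on Siglecf, Ear1 and Ear2, 6 were called higher and 6 lower in each kind of offspring. The falls were largest for Fabp1 in Sham (by 2.34) and Cidec in PM offspring (by 2.80), and Marco fell by 1.99 and by 2.01. Chil3, a chitinase-like protein, had the largest rise, by 4.74 and 4.92. The summed level of the 15 ranged from 416.1 to 689.3 RPM in Sham, 423.7 to 648.2 in PM, 968.4 to 1195 in Sham-OVA and 790.3 to 1224 in PM-OVA, and none of the 15 was at 0 throughout a group. The rise of the sum was carried by a few genes, chiefly Car4, which endothelial cells also make (208.1 RPM in Sham and 419.5 in Sham-OVA), Itgax (24.9 and 205.9 RPM) and Mrc1 (61.6 and 164.8 RPM), while Pparg and Plet1 fell as Marco, Fabp1 and Cidec did. Of 12 tested mast cell and basophil genes, which bear on Prg2, 6 were called higher and 2 lower in each kind of offspring, with Tpsab1 rising by 2.36 and 1.51 and Kit falling by 1.82 and by 1.77. The summed level of the 13 listed ranged from 496.0 to 699.0 RPM in Sham, 290.1 to 758.7 in PM, 364.4 to 721.7 in Sham-OVA and 389.1 to 516.1 in PM-OVA. Nearly all of that sum was Gata2 (275.9 RPM in Sham), Kit (252.6 RPM) and Hdc (73.7 RPM), of which Gata2 and Kit are also made by endothelial cells, so the sum does not describe mast cells or basophils. Of the mast cell protease genes, Tpsb2, Cpa3 and Mcpt1 were far lower and rose. Between Sham and Sham-OVA, Tpsb2 went from 0.782 to 5.52 RPM, Cpa3 from 0.596 to 3.98 RPM and Mcpt1 from 0.124 to 2.39 RPM. Their log2 fold changes were 2.26, 1.90 and 2.06 there and 1.13, 0.96 and 0.95 in PM offspring. Mcpt4 (0.63 and -0.49) and Cma1 (-0.23 and -0.74) were not called in Sham or PM offspring at the deposited scaling. Under quantile normalisation Mcpt4 was called higher in Sham offspring (1.15, adjusted p = 0.00300). Ms4a2 of the same list was called lower in PM offspring (-0.91, adjusted p = 0.0146) and not called in Sham offspring (-0.01). The part of these cells in the levels of the members was not tested.

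The remaining lists describe the tissue in which the eosinophil genes were measured. Their counts stand beside 20.6% of all genes called higher and 47.5% lower in Sham, and 20.1% and 45.2% in PM offspring. Of 12 tested neutrophil genes, 5 were called higher and 2 lower in Sham and 6 higher and 3 lower in PM offspring, with the largest rises in Retnlg (4.23) and Ltf (3.39) and the largest fall in Cxcr2 (by 2.22 and by 2.73). Of 8 plasma cell genes, 6 were higher and 1 lower, with median log2 fold changes of 4.13 and 3.79, led by Mzb1 (8.04) and Jchain (7.76), while Sdc1 fell by 1.66 and by 1.42. Of 10 interstitial macrophage genes 7 were higher and 1 lower, led by C1qa (3.91 and 3.36), while Lyve1 fell by 2.79 and by 2.44. Of 10 epithelial and endothelial genes, 2 were higher and 2 lower in Sham and 3 higher and 2 lower in PM offspring, with Sftpc at 1.19 and 1.14, not called under quantile normalisation (0.40 and 0.25), and Cdh5 falling by 1.49 and by 1.46. Of the sex-linked genes 1 was tested, Xist, which was called lower in PM offspring (by 1.45) and not called in Sham offspring. The Sham group includes replicate 1, which lacked Xist, so these 2 results cannot be set against each other. The mean summed level of the 5 sex-linked genes was 841.9 RPM in Sham and 314.6 in Sham-OVA, and 827.1 in PM and 311.6 in PM-OVA. Under the 2 other scalings, which were applied to these lists after seeing the data, the plasma cell list had 7 called higher and the interstitial macrophage list 8 or 9. Over all genes these scalings called 29.1% to 31.8% higher.

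Pairs of members were also compared across the challenged lungs. Because the 3 shallow libraries stood apart for some members, correlations were taken over the 6 deep libraries (4 Sham-OVA and 2 PM-OVA). Of 15 pairs, the closest was Epx and Prg2, with Pearson r = 0.89 (exact permutation p = 0.0264, adjusted p = 0.396) and Spearman rho = 0.77 (exact permutation p = 0.103, adjusted p = 1), and r = 0.54 without the 2 libraries farthest from the median of Epx. No pair passed adjustment over the 15. Rnase2a and Epx stood at r = 0.16 (exact permutation p = 0.786, adjusted p = 0.949), or 0.99 without the 2 libraries farthest from the median of Epx. Rnase2a and Il5ra stood at r = 0.28 (exact permutation p = 0.599, adjusted p = 0.949), or -0.49 without the 2 farthest from the median of Il5ra. These values rest on the libraries left out, and 4 libraries remain without them. The smallest p that 6 samples allow is 0.00278.

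Genes that varied most like a member around the group means are given as a description, by Pearson r over the 23 libraries. Epx was at 0 in every saline library, so its values rest on the 9 OVA libraries alone, and those of Prg2, with at most 5 reads in a saline library, rest mostly on them. These libraries also differ in depth. For Siglecf they were Lilra5 (0.92), Abcg1 (0.91), Tdrp (0.90), Tlr2 (0.90) and Prss23 (0.89), of which Abcg1, a cholesterol transporter, is on the alveolar macrophage list. For Epx they were Slc7a5 (0.85), Fam49b (0.84), Pvt1 (0.81), Zbtb44 (0.81) and Il13 (0.80), the last a cytokine of type 2 lymphocytes. For Prg2 they were Gabrr1 (0.81), Ctsl (0.78), Syt1 (0.77), 1700102P08Rik (0.76) and Rab44 (0.73). None of the other 9 members was among these for Epx, Prg2 or Siglecf, and Ear1 and Ear2 were too low to be ranked.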

How the data were processed

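Illumina Stranded mRNA libraries of 23 lungs were analysed. Per the methods, trimming by the authors was with Trimmomatic, alignment with Bowtie2, which does not split reads across introns, and quantification in SeqMonk, followed by DESeq2. The build is mm10 per the submitters' notes, and the strand setting of the counting is not given in the sources used here. The deposited table is named as RPKM, but its values, as deposited by the authors, are RPM (reads per 1000000 reads of the library), since the smallest step within a library was the same for every gene. Whole reads were recovered from this step, and 100% of values came out whole within 0.05 of a read. No column was left unmapped. Genes are those of the deposited symbols.

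The fold changes come from limma 3.58.1 (trend, R 4.3.3) on log2(RPM + 0.5) in the 2 groups compared, or all 4 for the interaction, and the test had been planned for RPKM. edgeR 4.0.16 and DESeq2 1.42.0 on recovered reads were alternatives, as were other pseudocounts, no filter, other scalings, array weights, a replicate block and leaving out libraries. The fits were checked on simulated counts. Named genes were all 10 members, the gene of each list with the largest rise and fall called in each OVA comparison, the CCR3 ligands with related chemokines, the IL-5 family cytokines and their receptor subunits, and the 5 genes most like Epx, Prg2 and Siglecf. Gata1, Prg3, Ang, Ear10, Ear14, Marco, Car4, Itgax, Mrc1, Pparg, Plet1, Gata2, Hdc, Tpsb2, Cpa3, Mcpt1, Mcpt4, Cma1 and Ms4a2 were named after their values were seen. The members and lists were chosen with earlier results of these data known. Confidence intervals are limma's, from the spread between libraries, and floors cover counting error only. Coding sequences (GENCODE, aligned with MAFFT 7.526) and promoters (RefSeq, which held 9 of the 10 members) are on GRCm38. Figures were drawn with matplotlib 3.10.9.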

Additional observations from a re-analysis of the deposited data

Results flagged for a closer look

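Among 29 groups of 4 to 7 libraries in which a member was above 0, 5 held a highest library far from the others by Dixon's criterion. Chance gives this in about 1 group in 20 where values are continuous, but 1 read among zeros always meets the criterion, so the 4 cases of that kind cannot be read against that rate. Rnase2a reached 2.96 RPM (51 reads) in Sham replicate 6, where the other Sham libraries held 0 to 0.289 RPM. The other cases were single reads. Rnase2b stood at 0.0752 RPM in Sham-OVA replicate 2, Ear1 and Ear2 each at 0.0633 RPM in Sham replicate 2, and Ear2 at 0.0587 RPM in PM replicate 5, with 0 in the rest of each group.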

How the results depend on the processing

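The 6 tested members were called in both OVA comparisons, and the alternatives called 5 or 6, with 6 under every omission of 1 library. The count past the stricter threshold of the study depended most on the setting. In Sham offspring it was 4, and it was 1 without a filter, 2 without Sham replicates 1 and 6, and 3 to 5 when 1 library was left out. In PM offspring it was 2, and it was 1 with a pseudocount of 0.1, without a filter, under quantile normalisation, with edgeR or without the 3 shallow libraries, 5 with all 4 groups in one fit or with DESeq2, and 1 to 2 when 1 library was left out (1 for each library but PM replicate 3 and PM-OVA replicate 1). With a replicate block both counts were 0, while the calls at an adjusted p under 0.05 stayed at 6. Replicate numbers were not taken as pairs. They follow the sample titles, and in the OVA groups most of them differ from the numbers in the library names. Equal replicate numbers need not mark matched libraries there, so the replicate block groups libraries by title number only and cannot test a pairing. Correlations of same-numbered deviations ran from -0.311 to 0.617, which does not settle whether any libraries pair. The highest was that of replicate 3 of Sham-OVA and PM-OVA, which are both shallow. The cause of these shifts was not tested. The interaction called 0 members, and 1 (Epx, at 0 in every saline library) with array weights. Uncalled differences changed sign as follows. For PM minus Sham, Rnase2a was 0.40 with DESeq2, 0.16 without Sham replicates 1 and 6, and -0.41 to 0.060 when 1 library was left out, and -2.42 with edgeR, which kept the sign. Under such omissions Prg2 ran from -0.013 to 0.094 and Siglecf from -0.069 to 0.30. For PM-OVA minus Sham-OVA, Siglecf was 0.11 without the 3 shallow libraries and -0.48 to 0.052 when 1 library was left out, where Prg2 ran from -0.46 to 0.038 and Il5ra from -0.45 to 0.025. The interaction of Rnase2a was -0.046 with a pseudocount of 1, -0.0011 with the replicate block, -1.01 with array weights, -0.45 without Sham replicates 1 and 6, and -0.38 to 0.31 when 1 library was left out, against 0.03 as reported. It was 2.04 with edgeR and 2.09 with DESeq2, neither called. The settings without the 3 shallow libraries and without Sham replicates 1 and 6, the first with Y-linked transcripts and the second with 2 Ddx3y reads and the high Rnase2a value, were chosen after seeing the data. Depth limits the lowest members, since 1 read was worth up to 0.311 RPM in the shallowest library.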
